A study of Homo sapiens with 6 samples.

Results

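In the kidney cancer line 786-O, derived from a clear cell tumour, 3456 promoter sites carried a DPF3a peak and a SMAD4 peak but no p300 peak, out of 51530 DPF3a peaks in all. They were chosen by their peak calls. A DPF3a peak was counted when it shared at least 0.5 of its own length and of the partner's length with a SMAD4 peak, when no p300 peak touched it by even 1 base, and when its summit lay within 1000 bp of any annotated transcript start in the hg38 build. Chromatin immunoprecipitation followed by sequencing (ChIP-seq) had been done for 3 factors with 2 replicate libraries each, which makes 6 samples, and 1 peak list per factor came from both replicates. For DPF3a, an HA antibody was used on cells overexpressing HA-DPF3a, after fixation with DSG, a protein crosslinker, and formaldehyde. SMAD4 and p300 were precipitated with antibodies to these proteins after formaldehyde alone, and the labels do not state whether those cells also overexpressed DPF3a. No untreated or input library is named, and no replicate values are held in the lists, so no spread between replicates can be given. All intervals are at 95% (Wilson for a share, Newcombe for a difference between shares) and cover counting error over sites only. Antibody, fixation and depth differed between the lists, so the strength of a peak was compared within a list and never between lists.

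SWI/SNF complexes use ATP to move nucleosomes, and DPF3a is an isoform of their subunit DPF3. SMAD4 is the partner that receptor-activated SMAD proteins need to act on chromatin after TGF-β or BMP signalling, and SMAD proteins bind DNA weakly, usually beside other transcription factors. The acetyltransferase p300 is a coactivator that modifies histones at active promoters and enhancers. AP-1, a dimer of JUN and FOS family proteins, is a frequent partner of SMAD proteins on DNA and is often found at enhancers, whereas promoters of widely expressed genes are typically CpG islands that hold sites for SP and KLF proteins. The study asked how DPF3a, SMAD4 and p300 meet on chromatin; the sites described here are those promoters where the first pair met and the p300 list held no call.

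The sequence at the summit is shown first, because AP-1 matches were more frequent over all these sites than over the promoters shared by all 3 factors, a difference that is given by kind of promoter further on. The 61 bp around the DPF3a summit are printed from the hg38 reference, plus strand, for strong sites near protein-coding genes. They come from the 20 such sites that ranked highest by DPF3a and SMAD4 strength together, less 3 that overlapped an untranslated region. Capitals mark the AP-1 consensus TGACTCA on either strand (TGAGTCA is the same site read on the other strand) in the following 6 sites.
COL16A1, chr1:31689962-31690022: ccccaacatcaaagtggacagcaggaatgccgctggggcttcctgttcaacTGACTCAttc
PXDN, chr2:1675765-1675825: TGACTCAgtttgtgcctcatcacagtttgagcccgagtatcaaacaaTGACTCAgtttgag
NREP, chr5:111997903-111997963: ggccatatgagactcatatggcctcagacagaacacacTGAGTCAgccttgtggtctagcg
PIK3CD, chr1:9719235-9719295: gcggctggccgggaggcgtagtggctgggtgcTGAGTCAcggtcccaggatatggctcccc
CPA5, chr7:130363603-130363663: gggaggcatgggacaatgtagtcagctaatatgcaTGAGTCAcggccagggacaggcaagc
KCNMA1, chr10:77350844-77350904: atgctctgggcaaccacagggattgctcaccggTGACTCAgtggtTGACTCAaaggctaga
PXDN and KCNMA1 held 2 copies in this window. The 4 highest-ranked sites without AP-1 within 50 bp follow, with capitals for the RUNX consensus at FOXO1 (AACCACA, the other strand of TGTGGTT).
CCDC192, chr5:127934951-127935011: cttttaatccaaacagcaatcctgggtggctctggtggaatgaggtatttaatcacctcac
OSBPL10, chr3:31969089-31969149: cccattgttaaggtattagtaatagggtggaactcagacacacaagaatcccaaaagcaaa
FOXO1, chr13:40563095-40563155: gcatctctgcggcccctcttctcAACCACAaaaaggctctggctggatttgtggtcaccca
FGF1, chr5:142645150-142645210: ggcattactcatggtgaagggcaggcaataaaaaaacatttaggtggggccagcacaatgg

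The sites without p300 were a minority of the promoters that DPF3a and SMAD4 shared. Among 12703 promoter DPF3a peaks, 9112 were shared with SMAD4 (71.7%, 70.9 to 72.5). Of these, 3456 touched no p300 peak (37.9%, 36.9 to 38.9), 4704 shared a p300 peak at 0.5 of both lengths (51.6%) and 952 touched one by less (10.4%). Away from promoters the balance was different, and 79.6% of 21455 distal DPF3a and SMAD4 sites touched no p300 peak (79.1 to 80.2). The sets compared below were the 4704 promoter sites of all 3 factors, the 17086 distal DPF3a and SMAD4 sites without p300, and 1317 promoter DPF3a peaks that touched neither other list.

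Most promoter sites without p300 did not lie at the main start of a protein-coding gene. The main start is the first base of the transcript that GENCODE marks as canonical, and 1371 sites had one within 1000 bp (39.7%, 38.1 to 41.3), against 81% of the promoter sites of all 3 factors. The difference was -41.3 percentage points (-43.3 to -39.3). A further 1199 sites (34.7%) had only another, alternative start of a protein-coding gene, against 9.5% of the sites of all 3 factors. Starts of long noncoding RNAs alone accounted for 670 sites (19.4%, against 7.95%) and starts of other gene types, such as pseudogenes and small RNAs, for 216 (6.25%, against 1.53%). The promoter DPF3a peaks without either partner were lower still, with 10.3% at a main start (8.8 to 12.1). Starts on both strands within 1000 bp of the summit were found at 14.1% of the sites without p300. At the sites of all 3 factors the share was 34.7% (difference -20.6 points, -22.4 to -18.8). The order of the starts was not examined, so divergent, convergent and antisense starts of any gene type were counted alike.

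Summits of sites without p300 were spread more widely around the start, as the plot of summit positions shows. The median distance to the nearest start was 162 bp (quartiles 58.8 and 425), against 90 bp (quartiles 32 and 181) at sites of all 3 factors and 384 bp at promoter DPF3a peaks without partners. Within 250 bp of a start lay 62.5% of the summits, against 84.1% for all 3 factors (difference -21.5 points, -23.4 to -19.6). Beyond 500 bp lay 21.4%, against 4.8%. The side also differed, since 44.1% of the summits without p300 were downstream of the nearest start and 54.8% of those of all 3 factors were (difference -10.7 points, -12.8 to -8.48). Exons were those of canonical transcripts only, and any other position inside a gene counted as intronic, exons found only in other transcripts included. On that definition, 2080 summits were intronic (60.2%, 58.5 to 61.8) and 600 were outside genes (17.4%). Another 598 were in untranslated or noncoding exons (17.3%) and 178 in coding exons (5.15%). The intronic share was 43.8% for the promoter sites of all 3 factors and 63.4% for distal sites without p300 (differences 16.4 points, 14.3 to 18.6, and -3.18 points, -4.98 to -1.41). By the intronic share alone, the promoter sites without p300 lay nearer to the distal ones. Their share outside genes lay nearer to the promoter sites of all 3 factors (18.8%) than to the distal sites (33.9%). Untranslated or noncoding exons held 27.9% of the sites of all 3 factors and 2.12% of the distal sites. For coding exons these shares were 9.57% and 0.656%. The part of exons at alternative starts in the intronic shares was not tested.

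**Figure D1:**
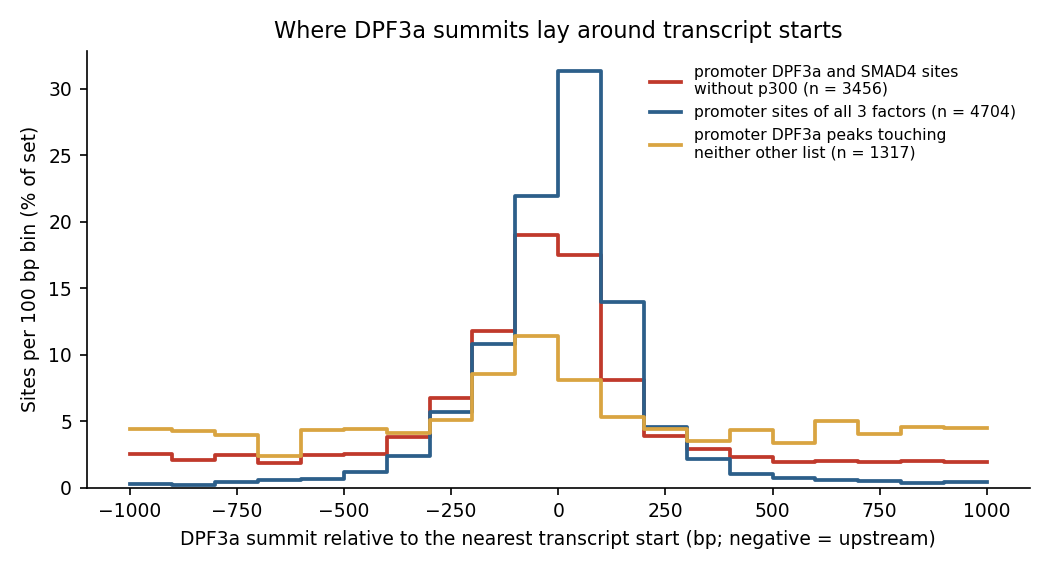
Percentage of sites (y axis) by position of the DPF3a summit relative to the nearest transcript start (x axis, bp, negative upstream, 100 bp bins), with 1 line per set. Promoter sites without p300 (red) peak at the start but with 19% and 17.5% in the innermost bins, against 21.9% and 31.3% for the sites of all 3 factors (blue), and keep 1.85% to 2.55% per bin beyond 500 bp.

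Base composition divided the sites without p300 into a CpG-rich minority and a CpG-poor majority. A site was called CpG-rich when the sequence within 250 bp of the summit had a GC content of at least 55% and a ratio of observed to expected CpG of at least 0.65. That held for 1161 of 3456 sites (33.6%, 32 to 35.2), for 79.4% of the promoter sites of all 3 factors, and for 0.989% of the distal sites without p300. The differences were -45.8 points (-47.8 to -43.8) and 32.6 points (31 to 34.2). For scale, 62.5% of 20033 main starts of protein-coding genes passed the same thresholds. The median GC content was 56.1% (quartiles 46.7 and 66.7), between the 66.9% of the promoter sites of all 3 factors and the 45.1% of distal sites without p300, and the range ran from 31.3% to 86.6%. The kind of start and the composition went together. At main starts 71.5% of the sites without p300 were CpG-rich (980 of 1371), and elsewhere 8.68% were (181 of 2085). The commonest combination was CpG-poor sequence with no main start, which described 1904 sites (55.1%), whereas it described 11.3% of the sites of all 3 factors.

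**Figure D2:**
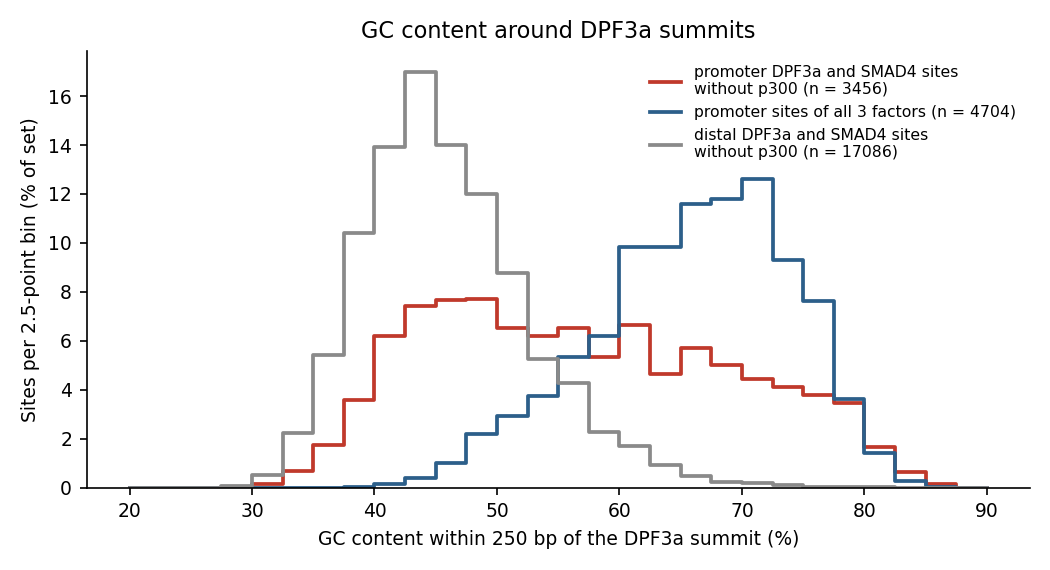
Percentage of sites (y axis) by GC content within 250 bp of the DPF3a summit (x axis, %, bins of 2.5 points), with 1 line per set. Sites without p300 in promoters (red, median 56.1%) are spread between the distal sites without p300 (grey, median 45.1%) and the promoter sites of all 3 factors (blue, median 66.9%), and overlap both.

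Seen the other way round, the share of promoter DPF3a and SMAD4 sites that lacked a p300 call differed by the kind of promoter. It was 20.9% of CpG-rich sites (1161 of 5566, 19.8 to 21.9) and 64.7% of CpG-poor sites (2295 of 3546, 63.1 to 66.3). It was 23.2% with a main start and 65% without one. Sites with an AP-1 match lacked p300 in 66.6% of cases (63.4 to 69.6) and those without AP-1 in 34.9% (33.9 to 35.9). Within CpG-poor sites the values were 70.6% with AP-1 (67.3 to 73.6) and 63.1% without (61.3 to 64.9), and within CpG-rich sites 32.6% (23.9 to 42.7, 92 sites) and 20.7% (19.6 to 21.8).

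AP-1 was the consensus whose share at the summit stood furthest above that of the neighbouring sequence, among motifs found at 30 sites or more. The letters TGACTCA, searched on both strands within 50 bp of the summit, were present at 581 of 3456 sites (16.8%, 15.6 to 18.1), against 1.36% in a pair of 50 bp windows centred 500 bp away at the same sites and 1.09% in windows of the same length at all main protein-coding starts. The promoter sites of all 3 factors held it at 4.91% (difference 11.9 points, 10.5 to 13.3). Distal sites without p300 held it at 27.3% (difference -10.5 points, -11.9 to -9.04), and promoter DPF3a peaks without partners at 22.6%. Where AP-1 was present, the nearest match lay a median of 22 bp from the DPF3a summit, 271 sites had it within 20 bp, and 41 sites had 2 or more matches. Of 626 matches, 12 shared bases with a match of another motif.

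RUNX and TEAD consensus matches were also more frequent than at the promoter sites of all 3 factors, at lower levels than AP-1. RUNX proteins are DNA-binding partners of SMAD proteins, and TEAD proteins are the DNA-binding partners of YAP and TAZ. The RUNX letters TGTGGTT were found at 188 sites (5.44%, 4.73 to 6.25), against 1.16% in the neighbouring windows, 0.988% at all main starts and 1.3% at promoter sites of all 3 factors (difference 4.14 points, 3.35 to 5). The TEAD letters GGAATGT were found at 106 sites (3.07%, 2.54 to 3.7), against 1.07% in the neighbouring windows, 0.684% at all main starts and 1.28% at the sites of all 3 factors (difference 1.79 points, 1.15 to 2.48). Both were more frequent at distal sites without p300, with 9.77% and 5.24%. At promoter DPF3a peaks without partners, RUNX stood at 6.23%, which did not differ from the sites without p300 beyond counting error (difference -0.786 points, -2.39 to 0.645), and TEAD at 5.47% (difference -2.4 points, -3.86 to -1.13). RUNX and TEAD matches shared bases at 4 places among 197 RUNX matches.

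Taken over all sites without p300, the promoter consensus sequences SP/KLF, ETS, YY1 and NRF1 were less frequent than at sites of all 3 factors. The NF-Y and CRE sequences did not differ beyond counting error. The SP/KLF letters GGGCGGG were found at 12% of sites without p300 (11 to 13.1), at 17.2% of the sites of all 3 factors (difference -5.15 points, -6.67 to -3.61) and at 22.4% of all main starts, against 4.89% in the neighbouring windows. The ETS letters CCGGAAGT were found at 22 sites (0.637%), against 1.62% and 3.93%. Among CpG-rich sites the ETS shares were 1.64% without p300 (1.05 to 2.54) and 1.87% with all 3 factors (1.49 to 2.36). Among CpG-poor sites they were 0.131% (0.0445 to 0.384) and 0.62% (0.284 to 1.35). The YY1 letters AAGATGGCG were found at 7 sites (0.203%, against 0.744% at the sites of all 3 factors and 2.24% of main starts) and the NRF1 letters GCGCATGCG at 2 (0.0579%, against 0.425% and 1.2%). The NF-Y letters CCAATCA or CCAATGA were found at 2.26% and 1.72% (difference 0.535 points, -0.072 to 1.18) and the CRE letters TGACGTCA at 0.405% and 0.34% (difference 0.065 points, -0.203 to 0.368). HNF1, a factor of renal tubular epithelium, had the letters GTTAATNAT at 25 sites (0.723%, 0.49 to 1.07), against 3 sites in the neighbouring windows and 0.105% of main starts. Its share was 0.213% at the sites of all 3 factors, 1.18% at distal sites without p300 and 0.911% at promoter DPF3a peaks without partners. The SMAD letters themselves were rare. The palindrome GTCTAGAC occurred at 3 sites and the CAGA box AGCCAGAC at 30 (0.868%, 0.609 to 1.24), against 17 sites in the neighbouring windows. The CAGA box stood at 0.425% of the sites of all 3 factors (difference 0.443 points, 0.0958 to 0.841) and at 0.802% of distal sites without p300. In all, 21 motifs were compared between 4 sets, and the intervals are not adjusted for that number. An exact consensus misses variants of a site, so that no match says nothing about binding.

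**Figure D3:**
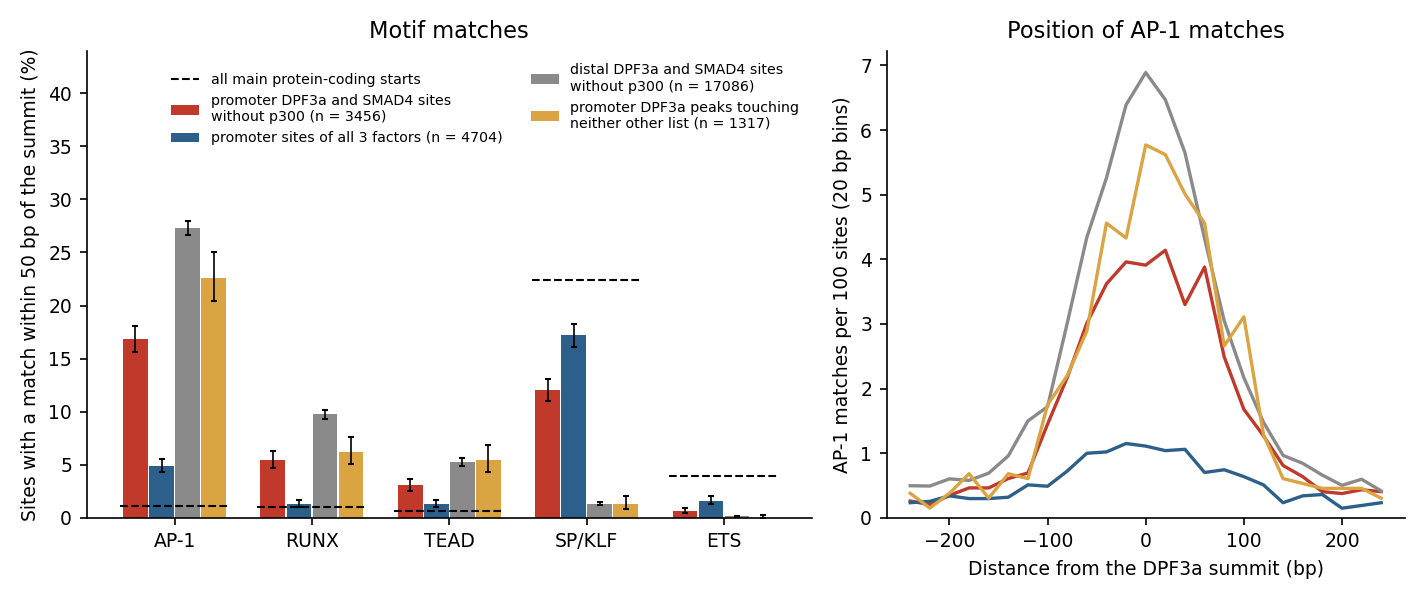
Left, percentage of sites with an exact consensus match within 50 bp of the DPF3a summit (y axis) for 5 motifs in the 4 sets, with Wilson intervals as error bars and dashed lines for all main protein-coding starts; AP-1 stands at 16.8% of promoter sites without p300 and 4.91% of promoter sites of all 3 factors. Right, AP-1 matches per 100 sites (y axis) in 20 bp bins of distance from the DPF3a summit (x axis, bp), with the same colours, which centre on the summit in each set.

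The excess of AP-1 over the promoters of all 3 factors was small once sites of the same kind were compared. In CpG-poor sequence without a main start, AP-1 was present at 25.8% of the 1904 sites without p300 and at 25.1% of the 533 sites of all 3 factors (difference 0.647 points, -3.65 to 4.68). In CpG-rich sequence at a main start the shares were 1.53% and 1.24% (difference 0.287 points, -0.454 to 1.32). The mixed kinds kept a difference. CpG-poor main starts had 15.3% of 391 and 9.66% of 435 (difference 5.69 points, 1.18 to 10.3), and CpG-rich sites without a main start had 8.29% of 181 and 3.61% of 360 (difference 4.68 points, 0.634 to 9.83). In CpG-poor sequence without a main start, RUNX was present at 8.51% of sites without p300 and 5.25% of sites of all 3 factors (difference 3.26 points, 0.732 to 5.34). TEAD did not differ there beyond counting error (4.62% and 4.88%, difference -0.256 points, -2.59 to 1.59). Among CpG-rich main starts, SP/KLF was more frequent without p300 (27.7% and 19.6%, difference 8.07 points, 5.04 to 11.2), the reverse of its order over all promoter sites. Against CpG-poor distal sites without p300, the CpG-poor sites without a main start showed no difference beyond counting error in AP-1 (25.8% and 27.5%, difference -1.7 points, -3.73 to 0.421), RUNX (8.51% and 9.85%, difference -1.34 points, -2.6 to 0.0691) and TEAD (4.62% and 5.28%, difference -0.663 points, -1.59 to 0.425). SP/KLF did differ there, with 3.41% and 1.08% (difference 2.34 points, 1.59 to 3.26).

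**Figure D4:**
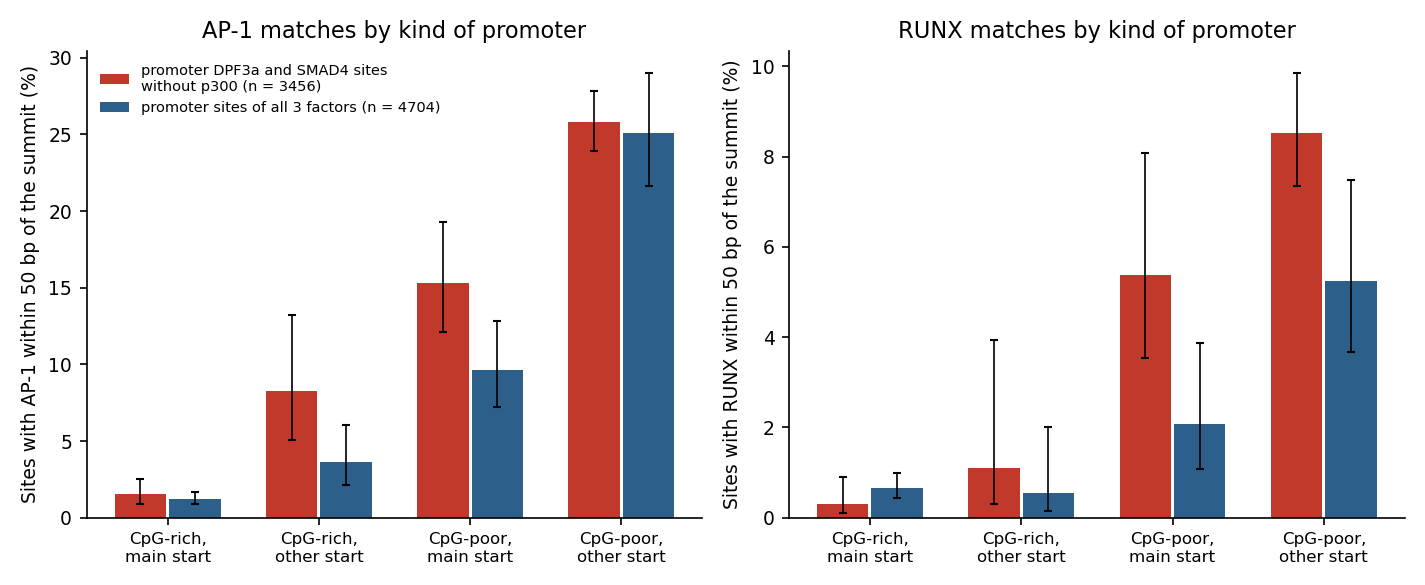
Percentage of sites with an AP-1 (left) or RUNX (right) consensus within 50 bp of the DPF3a summit (y axes) in 4 kinds of promoter (x axes), for promoter sites without p300 (red) and of all 3 factors (blue), with Wilson intervals as error bars. AP-1 shares rise from 1.53% to 25.8% across the kinds without p300 and from 1.24% to 25.1% with it.

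The strength of the peaks is given as a description, since peak calls chose the sites. Fold enrichment is the read pileup at the summit over the local background, each plus 1. For DPF3a the median was 6.17 (quartiles 5.09 and 8.11, range 2.56 to 18.8), against 5.97 at the promoter sites of all 3 factors and 8.02 at the distal sites without p300. For SMAD4 the median was 6.77 (quartiles 5.22 and 8.62, range 2.12 to 21.7), against 8.97 at the promoter sites of all 3 factors and 6.09 at the distal sites. Among the sites without p300, the 2 factors had opposite orders across promoter kinds. CpG-poor sites without a main start had a median of 7.29 for DPF3a and 6.07 for SMAD4, and CpG-rich main starts 5.36 for DPF3a and 8.2 for SMAD4, each within its own list. Sites with an AP-1 match had a DPF3a median of 7.82 (quartiles 6 and 9.96) and those without it 5.98 (5 and 7.57). The SMAD4 medians were 6.25 and 6.9. Composition differed as well, since 5.16% of the sites with AP-1 and 39.3% of those without it were CpG-rich. All CpG-poor sites without p300 had medians of 6.97 for DPF3a and 6.13 for SMAD4. The part of composition in the differences by AP-1 was not tested. The summits of both factors lay a median of 57 bp apart (quartiles 25 and 120), against 80.5 bp at promoter sites of all 3 factors and 44 bp at distal sites without p300. Within 50 bp of each other lay 45.3% of the summit pairs, against 35% and 56.1%.

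The absence of p300 means the absence of a call at the depth of that list. The summit height in reads, recovered from the deposited values, had a median of 26 reads for DPF3a and 51 for SMAD4 at the sites without p300. No p300 peak had fewer than 14 reads, and at the median background of promoter p300 peaks, 4.9 reads, none had fewer than 21. At the promoter sites of all 3 factors the median p300 height was 29 reads (quartiles 25 and 34). Weaker p300 signal at the sites without a call was therefore not detectable here. The share of promoter DPF3a and SMAD4 sites without a p300 call fell along 5 equal groups of rising SMAD4 fold enrichment, from 73.9% in the lowest (71.8 to 75.9) through 44.3%, 27.9% and 22.9% to 20.6% in the highest (18.8 to 22.5). It had no such order along DPF3a, with 40.2% in the lowest group, 31.3% in the middle one and 52.7% in the highest (50.4 to 55). The part of SMAD4 strength in the absence of a p300 call was not tested.

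Most sites without p300 lay far from any p300 peak. The nearest one was a median of 27400 bases away (quartiles 10800 and 62000), and 152 sites had one within 1000 bp (4.4%, 3.76 to 5.13). This was not particular to them. The median was 30700 bases at distal sites without p300 and 26200 at promoter DPF3a peaks without partners, with 2.84% and 6.68% within 1000 bp. Nearest to the limit were a site at MPP3, which missed a p300 peak by 3 bases, and one at CNN3, which encodes the actin-binding protein calponin 3, by 15 bases. Just outside, sites at PLEKHG1 and EEF1G touched a p300 peak by 1 and 3 bases. On the overlap rule, 2 sites stood at 0.5 of the longer peak and the nearest excluded ones, at UFSP1 and EIF3I, at 0.49936 and 0.49929. On the promoter rule, sites 1000 bp from a start at KPNA1 and a noncoding gene were in, and sites at 1001 and 1002 bp were out.

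The share of CpG-rich promoters without p300 varied between chromosomes. It was 56% on chromosome 22 (65 of 116, 47 to 64.7), 52.1% on chromosome 19 (152 of 292, 46.3 to 57.7), 47.2% on X (42 of 89, 37.2 to 57.5) and 41.7% on chromosome 14 (43 of 103, 32.7 to 51.4), and on the other chromosomes, Y left out, it ran from 9.06% on 10 to 31.8% on 17. For distal sites, chromosomes 14 and X also had the highest shares without p300 (92% and 90.7%), while 22 and 19 did not (78.6% and 78.7%). The p300 list held 22.1 peaks per 100 DPF3a peaks on chromosome 14 and 20.5 on X, against 28.7 on 22, 34.8 on 19 and 65.4 on chromosome 7. Chromosomes 18 and 13 also had few p300 peaks, 23.9 and 24.5 per 100 DPF3a peaks, and 11.1% and 13.7% of their CpG-rich promoter sites lacked p300. The part of the density of p300 calls on a chromosome in these shares was not tested.

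**Figure D5:**
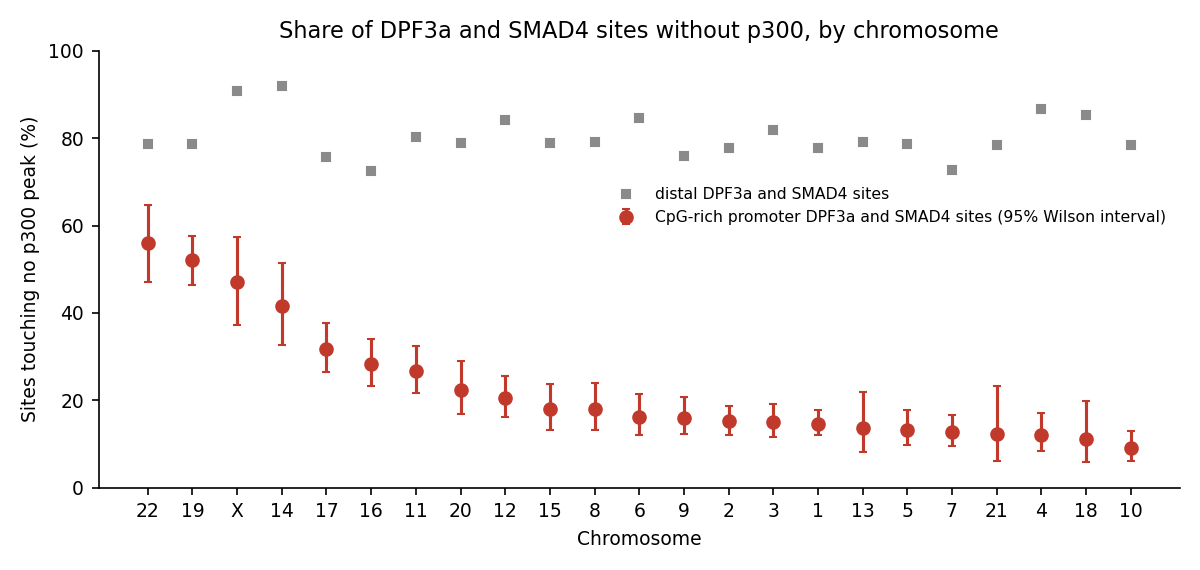
Percentage of DPF3a and SMAD4 sites that touched no p300 peak (y axis) by chromosome (x axis, ordered by the promoter value, Y left out), with CpG-rich promoter sites as red points with Wilson intervals and distal sites as grey squares. Chromosomes 22, 19, X and 14 stand at 41.7% to 56%, and the others at 9.06% to 31.8%.

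The strongest sites near protein-coding genes were mostly at alternative starts inside genes. Of the 20 with the highest product of strength ranks, 17 had no main start within 1000 bp, 15 lay in an intron of the main transcript, none was CpG-rich, and 8 had an AP-1 match, 4 of them with 2 or more. Over all 2570 sites near a protein-coding start, 53.3% had a main start, 42.5% were CpG-rich and 14.5% had an AP-1 match. At the 20 strongest sites the DPF3a fold enrichment ran from 12.6 to 16.7 and the SMAD4 fold enrichment from 11.5 to 16.2. They had 48 to 109 and 47 to 175 reads at the summits. The summits of both factors were 4 to 85 bp apart, with a median of 14 bp. SPINT2, which encodes a Kunitz-type serine protease inhibitor, had the strongest such site (chr19:38290299-38291108, intron, 575 bp downstream of an alternative start), at 15.2-fold for DPF3a and 16.2-fold for SMAD4, with summits 13 bp apart and 1 AP-1 match.

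The genes of these sites had varied functions. COL16A1, a fibril-associated collagen, had a site 24 bp upstream of an alternative start (chr1:31689618-31690376, intron of the main transcript) at 16.3-fold for DPF3a and 13.8-fold for SMAD4. PXDN, the peroxidase that crosslinks collagen IV in basement membranes, had one at 16.7-fold and 12.5-fold (chr2:1675519-1676032, intron). ADAMTS6, a secreted metalloprotease, had one at 13.9-fold and 12.6-fold. FGF1, a fibroblast growth factor, had one at 14.5-fold and 12.6-fold (chr5:142644795-142645476, 879 bp upstream of an alternative start). FOXO1, a forkhead transcription factor under the control of AKT, had one at 14.7-fold and 14.6-fold in an intron (chr13:40562890-40563459) with a RUNX match. PIK3CD, a catalytic subunit of phosphoinositide 3-kinase, had one at 15-fold and 11.6-fold with 3 AP-1 matches. EMP1, an epithelial membrane protein, was among the 3 at a main start, 83 bp upstream of it (chr12:13196193-13196949), at 13.8-fold and 12.6-fold and with a CAGA box. The other 2 were SEMA4A, a semaphorin (14.6-fold and 11.8-fold), and SH3TC1 (12.6-fold and 15.4-fold). Further genes among them, CCDC192, OSBPL10, RHOBTB3, NREP, LBH, PPFIBP2, NPLOC4 and CPA5, had values inside the ranges above, as did KCNMA1, a potassium channel with AP-1 and RUNX matches. Without the limit to protein-coding genes, the highest-ranked site of all was at a long noncoding RNA on chromosome 3, at 18.1-fold and 14.3-fold.

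A total of 2531 protein-coding genes had a start within 1000 bp of a site without p300, which is 12.6% of 20033. Promoter DPF3a and SMAD4 sites that touched p300 marked 5691 genes (28.4%), and 445 genes had both kinds, which is 17.6% of the former. A gene with many annotated starts offers more sequence to the rule, and the median number of distinct starts was 9 for genes with a site without p300 and 5 for all protein-coding genes. The gene lists below are given by counts beside 12.6%, with no test, and most with the median number of starts of their genes. Over all lists together 134 of 620 genes had a site without p300 (21.6%), and the lists were chosen with earlier results of these data known. A list near 21.6% is therefore close to the level of the chosen lists as a whole.

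Genes of the actin cytoskeleton and of focal adhesions had a site without p300 in 26 of 69 cases (37.7%), with a median of 10 starts per gene, and a p300-touching site in 28 (40.6%). Of their 33 sites, 8 were CpG-rich and 10 were near a main start. LIMK2, a kinase that inactivates cofilin, had the strongest (14.2-fold for DPF3a and 10.5-fold for SMAD4, intron). SEPTIN9, a filament-forming GTPase, had 3 sites, the strongest at 8.56-fold and 13.2-fold and the others at 3.36-fold and 2.99-fold for DPF3a. CNN3 stood at 10.1-fold and 7.27-fold, and CDC42EP3, an effector of the GTPase CDC42, at 8.7-fold and 8.01-fold, 367 bases from a p300 peak. Extracellular matrix and integrin genes had 17 of 75 (22.7%, median 8 starts). CD44, the hyaluronan receptor, stood at 13.9-fold and 9.51-fold in a coding exon of the main transcript, COL12A1 at 11-fold and 10.4-fold near its main start, TIMP1, an inhibitor of metalloproteases, at 10.1-fold and 11.5-fold, 39 bp upstream of its main start, and ITGB5, an integrin subunit, at 10.1-fold and 9.05-fold. Genes of epithelial-mesenchymal transition and adhesion had 10 of 44 (22.7%, median 7 starts), with 1 CpG-rich site among 12. They included the Wnt receptor FZD2 (9.96-fold and 8.11-fold), the epithelial transcription factor GRHL2 (8.63-fold and 7.43-fold) and the keratins KRT7 (6.97-fold and 6.98-fold) and KRT8 (6.51-fold and 6.28-fold), both with AP-1. The KRT8 site lay within 1000 bp of a start of the neighbouring keratin gene KRT18 as well.

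In the TGF-β and BMP pathway, 13 of 59 genes had a site without p300 (22%, median 5 starts) and 26 had a promoter site that touched p300 (44.1%), with 3 genes in common. LTBP1, a binding protein that holds latent TGF-β in the matrix, had a site at 14.2-fold for DPF3a and 11.5-fold for SMAD4, 88 bp downstream of an alternative start. SMAD7, the inhibitory SMAD that TGF-β signalling induces, had 2 sites, both in introns of the main transcript, at 12.7-fold and 12.5-fold with 120 and 258 reads, and at 6.97-fold and 8.29-fold. LTBP4 stood at 9.64-fold and 14.4-fold, and GDF15, a distant member of the TGF-β family, at 7.8-fold and 11.6-fold with AP-1. The other genes were ACVR1, ACVR2B, FSTL3, ID2, SKI, SMAD3, SMAD6, SMURF1 and TGIF2. Of the 16 sites of this list, 8 were CpG-rich, 8 were near a main start and 1 held AP-1.

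Genes of AP-1 and related bZIP proteins had 8 of 22 (36.4%, 19.7 to 57, median 3.5 starts), against 3 with a p300-touching site (13.6%). They were BACH2 (6.6-fold and 10.9-fold), MAFF (6.54-fold and 7.28-fold), JUND (6.8-fold and 6.46-fold), FOSB (6.94-fold and 4.94-fold), BATF3, FOSL1, FOSL2 and MAFG, and 6 of the 9 sites were CpG-rich and near a main start. Both RUNX1 and RUNX2 had sites, among 4 genes of that family list (50%, 15 to 85, median 11.5 starts). The values were 5.15-fold and 6.57-fold for the stronger RUNX1 site and 7.44-fold and 7.35-fold for RUNX2. Receptor tyrosine kinase and ERK feedback genes had 9 of 53 (17%, median 6 starts), led by FGF1 and by IGF1R, the receptor of insulin-like growth factor 1, whose 3 intronic sites stood at 6.29-fold, 11.3-fold and 12-fold for DPF3a and 4.91-fold, 15.3-fold and 9.23-fold for SMAD4. The ERK pathway inhibitors SPRY2 (7.26-fold and 8.37-fold, main start) and SPRED2 (11.4-fold and 6.09-fold, with AP-1) were further members. Hippo effectors and targets had 5 of 27 (18.5%, median 6 starts), among them both transcriptional coactivators of the pathway. WWTR1, which encodes TAZ, had 3 sites (12.4-fold, 3.81-fold and 13.4-fold for DPF3a), and YAP1 had 2 (8.3-fold and 6.09-fold).

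Inflammatory signalling genes had 10 of 33 (30.3%, 17.4 to 47.3, median 6 starts), and 7 of the 10 sites were near a main start. The chemokine gene CXCL8 stood at 10.3-fold for DPF3a and 12.1-fold for SMAD4, 67 bp downstream of its main start, NFKBIA, the NF-κB inhibitor, at 7.29-fold and 10.8-fold, IL32 at 6.85-fold and 10-fold, and TNFAIP3, another inhibitor of NF-κB, at 6.96-fold and 8.64-fold with AP-1. Renal lineage factors had 8 of 26 (30.8%, 16.5 to 50, median 5 starts). CDH16, the kidney-specific cadherin, stood at 10.9-fold and 8.42-fold near its main start, HOXD11 at 8.54-fold and 9.63-fold, PAX8, a lineage factor of renal epithelium, at 9.13-fold and 8.78-fold with AP-1 and 365 bases from a p300 peak, and TFAP2A at 10.2-fold and 6.55-fold. Hypoxia factors and targets had 4 of 30 (13.3%), near the 12.6% of all genes. They included PGK1 (9.54-fold and 5.4-fold for the site in its coding sequence) and LDHA (3.94-fold and 6.03-fold), both glycolytic enzymes. The others were VHL (5.14-fold and 10.4-fold, near its main start) and the glucose transporter SLC2A1 (3.06-fold and 3-fold).

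Cytosolic ribosomal proteins had 6 of 76 (7.89%, 3.67 to 16.2), with all 6 sites near a main start, 5 of them CpG-rich and none with AP-1. RPS26 stood at 6.48-fold for DPF3a and 11.1-fold for SMAD4, RPL18 at 6.94-fold and 8.75-fold, RPL13A at 4.7-fold and 7.57-fold and RPL35A at 4.36-fold and 6.96-fold. Proteasome subunits had 4 of 31 (12.9%), namely PSMD1, PSMD13, PSMC4 and PSMB5, at 5.04-fold to 5.56-fold for DPF3a at their main starts. PSMD1 had a second, intronic site at 13-fold and 6.99-fold. Cell cycle and DNA replication genes had 7 of 50 (14%), among them POLA1 (7.14-fold and 12.5-fold), RBL1 (6.34-fold and 9.24-fold), GINS1 (6.25-fold and 8.9-fold) and CDT1 (5.18-fold and 6.61-fold), with 6 of 7 sites CpG-rich. SWI/SNF subunits had 5 of 28 (17.9%, median 13 starts), each with a site near its main start, against 15 with a p300-touching site (53.6%). BRD7 stood at 7.14-fold and 11.7-fold, DPF2, a paralogue of DPF3, at 6.19-fold and 8.17-fold, SMARCD2 at 5.85-fold and 7.96-fold and SMARCD3 at 5.45-fold and 8.33-fold for the stronger of its 2 sites, with SMARCD1 the fifth.

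Most genes had a single site. The count was 2283 genes with 1, 203 with 2 and 45 with 3 or more, and the last group had a median of 18 annotated starts. Their 137 sites lay near a main start in 22 cases, were CpG-rich in 26 and held AP-1 in 28 (20.4%), and 14 of the 45 genes also had a promoter site that touched p300. MICAL2, a monooxygenase that oxidises actin, and MYLK, the myosin light chain kinase, had 4 sites each. At MICAL2 the DPF3a values were 5.45-fold at the CpG-rich main start and 11-fold, 6.15-fold and 8.88-fold further in the gene. At MYLK all 4 sites were intronic, at 5.05-fold, 10.7-fold, 4.12-fold and 3.85-fold, the last 2 within 2608 bases of a p300 peak. GSN, which encodes the actin-severing protein gelsolin, had 1 CpG-rich site near its main start (4.49-fold for DPF3a and 7.22-fold for SMAD4) and 2 CpG-poor intronic sites with AP-1 (6.81-fold and 4.38-fold, 13-fold and 9.23-fold). Among the 18 genes of this group with a CpG-rich site near the main start and a CpG-poor site elsewhere, the strongest CpG-poor site had the higher DPF3a fold enrichment in 14 and the higher SMAD4 fold enrichment in 5, a comparison chosen after the values were seen, in which a gene can offer more than 1 CpG-poor site. WDR1, a cofactor of cofilin in actin turnover, stood at 4.91-fold for DPF3a at the main start and 10.7-fold at the strongest other site, and XPNPEP1, an aminopeptidase, at 6.67-fold and 14.8-fold. ACOT7, MIDEAS, MOB3A and SYNJ2 had the opposite order, for example 8.13-fold and 6.91-fold at SYNJ2. The remaining genes of this group were ABCC3, AMPD3, ANXA2, ARRDC2, C7orf50, CACNA1A, CELSR1, CMIP, CSK, DENND2B, DOCK6, ERGIC1, GCNT3, IARS1, IGF1R, KIFC3, MACF1, MAD1L1, MAP4, MCC, MED15, MEF2C, NRP2, OSBPL10, PISD, PRKCH, SEPTIN9, SHKBP1, SPATS2, STRA6, STRN4, SUSD1, TACC1, TCF4, TNIP1 and WWTR1.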

How the data were processed

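ChIP-seq of DPF3a, SMAD4 and p300 in 786-O cells (2 replicate libraries per factor) was used, grouped by the factor in the sample titles. Per the methods and the submitters' processing notes, the authors trimmed reads, mapped them with Bowtie2 2.3.5.1 to hg38, removed low-quality, mitochondrial and duplicate reads and called peaks with MACS2 2.2.5. The deposited score exceeds 50 in every row. The deposited fold enrichment is a ratio of pileup to local background. The deposited −log10 p and −log10 q follow from the caller's Poisson model of that background, and with the fold enrichment they gave the summit height in whole reads. Total depth per library is not analysed here. Whether an input library served as background is not given in the sources used here.

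Overlaps were computed in Python 3.11.15 and gave identical calls to bedtools 2.31.1 in 4 of 4 comparisons. Starts, exons and canonical transcripts are from GENCODE 44, and sequence was read from hg38 with pysam 0.24.0. All 54 sequence names of the lists were in the reference. Motif scan and height recovery were tested on simulated data, and the intervals were compared with those of a statistics library at fixed counts. Named genes were the 20 strongest sites near protein-coding genes (over 20000 bp from an assembly gap), up to 4 genes per list, genes with 3 or more sites and the sites nearest each limit, and a gene among the strongest sites is not reported here. Members, motifs and 15 gene lists were chosen with earlier results of these data known. No test was made, because no value per replicate exists.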

Additional observations from a re-analysis of the deposited data

How the results depend on the processing

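No paired analysis was possible because each factor has 1 peak list for both replicates, so replicates could also not be left out. The alternatives moved the shares but kept their order against the promoter sites of all 3 factors where both were computed. Which kind of site was the majority depended on the rule. With p300 at a score over 100, most sites were CpG-rich and most had a main start. With protein-coding starts only, most had a main start. With a score over 100 for DPF3a and SMAD4, 1729 sites and 1201 genes were left, with 23.1% AP-1 (8.07% at sites of all 3 factors), 21.6% CpG-rich and 28.4% at a main start. With p300 at a score over 100, which left 4158 of its 20380 peaks, there were 6944 sites and 5746 genes, with 11.3% AP-1, 54.5% CpG-rich and 59% at a main start, against 4.13%, 82.8% and 83.3% at the sites of all 3 factors (the last 3 values were added after seeing the data). An overlap of 1 bp with SMAD4 gave 14.6%, 38.7% and 45.5% in the same order, and a p300 peak allowed to touch by less than 0.5 gave 14.6%, 41.5% and 47.4%. Promoters of 500 bp gave 14.3%, 41.1% and 44.4%, those of 2500 bp gave 5395 sites with 21%, 22.6% and 34.9%, and protein-coding starts only gave 14.5%, 42.5% and 53.3%. AP-1 stood at 28.2% within 100 bp (8.08% at sites of all 3 factors) and at 15.4% around the SMAD4 summit. CpG-rich thresholds of 0.50 and 0.60 gave 36.8% (85%). Excluding p300 within 1000 bp, using the SMAD4 summit for the promoter rule and removing doubtful sites each stayed inside the intervals or within 1.5 times the counts. A p300 signal below the threshold of its list is not detectable here.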
